A study of Bos taurus with 96 samples.

Results

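WNT proteins are secreted ligands that bind Frizzled receptors with LRP co-receptors and, in the canonical branch, stabilise beta-catenin, which then activates TCF/LEF target genes. Several secreted proteins hold the signal in check: the SFRP family and FRZB carry a Frizzled-like domain and bind WNT ligands, WIF1 also binds the ligands, and proteins of the Dickkopf family act at the co-receptor, although DKK3 is a divergent member whose action on WNT signalling is less settled. Canonical WNT signalling is known for keeping adipose precursors from differentiating and for its part in muscle development. The genes described here are 2 WNT ligands, WNT2B and WNT11, and 6 secreted proteins of the inhibitor families, SFRP1, SFRP2, SFRP4, FRZB, DKK3 and WIF1. They were chosen by name from the WNT pathway and found on the array through the accession printed for each probe and the probe tables of the study. Of 9 genes sought, 8 had a probe tested, and WNT5A, for which no probe was matched, was not analysed here. The 8 genes had 14 of the 34227 probes tested, among 10653 genes named in all. FRZB and DKK3 also appear in gene lists that the study chose on these same samples, so their difference between depots is not independent evidence.

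The data are 96 one-colour arrays of total RNA from the tissues of steers. The labels give each sample a feedlot time of 259 d and repeat that figure as an age, which is not used here as one. Each fat depot was measured on 12 arrays, 4 for each of 3 breeds (Angus, Hereford, and the cross Wagyu x Angus), all from steers that grazed pasture before the feedlot. The depots were subcutaneous fat over the rump (SC), fat around the kidney (Kid), fat of the omentum (Omen), fat between muscles (Inter), and intramuscular fat (IMF) dissected from the M. longissimus dorsi. The M. longissimus dorsi itself (LD), with its intramuscular fat in place, was measured on 24 arrays of pasture animals, 8 per breed, and on 12 arrays of animals given supplemental feed, 4 per breed. By the study's methods some LD samples, pasture and supplement, came from animals slaughtered earlier, and the labels do not say which, so the pasture LD arrays set against fat may mix slaughter times, and whether the feedlot time holds for all LD samples is not known. By the study's methods 1 steer gave several tissues and some steers shared a sire, but the labels name neither, so arrays were treated as independent samples and p-values measure only the spread between them. Values are log2 signals relative to the 75th percentile of their own array. They compare 1 probe between arrays, and levels of different probes are not comparable. Each gene is given by the probe with its highest mean level, and a difference was called where limma's test with Benjamini-Hochberg adjustment over all 34227 probes gave an adjusted p under 0.05.

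The tissue labels were checked against cell type markers. The mean over 12 skeletal muscle markers ran from 8.56 to 9.07 on the LD arrays of pasture animals and from -3.72 to -2.39 on the SC arrays, while the adipocyte markers ran from -0.91 to 2.11 in LD and from 4.57 to 5.22 in SC. IMF carried both: its muscle markers ran from 6.38 to 8.14 and its adipocyte markers from 2.44 to 4.67, so a member level in IMF is that of fat with muscle. All 12 muscle markers were higher in IMF than in SC, where 64.3% of all probes were called. So were 8 of 8 smooth muscle markers (DES is in both lists), 6 of 7 markers of tendon and perimysium and 6 of 7 Schwann cell markers. In the other direction, 8 of 9 adipocyte, 9 of 10 fibroblast and 7 of 7 macrophage markers were lower. One Inter array, from a Wagyu x Angus steer, had a muscle marker mean of 5.95 against a median of -2.53 for its depot. In bulk tissue fewer cells of a type and less RNA per cell cannot be told apart. Scan day was not spread evenly, since all 12 IMF arrays were scanned on the third day and 11 of 12 SC arrays on the first. Values with scan day as a block are therefore given below where they change a member's call against SC, and as counts for other pairs. For IMF and SC alone that block rests on the 1 SC array scanned on the third day. Fewer markers were then called outside the skeletal muscle and macrophage lists. Over all 96 arrays with the block (50% of all probes), 8 of 8 smooth muscle, 5 of 7 tendon and perimysium and 6 of 7 Schwann cell markers were higher. Lower were 8 of 9 adipocyte, 7 of 10 fibroblast and 7 of 7 macrophage markers.

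Between IMF and SC, DKK3 showed the largest difference of the 8 genes by their main probes: it was 4.96-fold higher in IMF. A second FRZB probe, near background in SC, differed by more. SFRP1, WNT2B and FRZB were higher in IMF as well, by 4.65-, 3.15- and 2.13-fold. Among the other fat depots, WNT2B was higher than in SC in Inter as well, WNT11 stood highest in Inter, SFRP4 was lower in Kid and Omen than in SC, and SFRP2 was lower in Inter than in SC. LD muscle had the highest FRZB of the 6 tissues and the lowest WNT2B, SFRP2, SFRP4 and DKK3. All 8 genes differed among the 5 fat depots by an F test with breed as a covariate, in which 87.4% of all probes passed, so passing it did not set these genes apart.

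**Figure D1:**
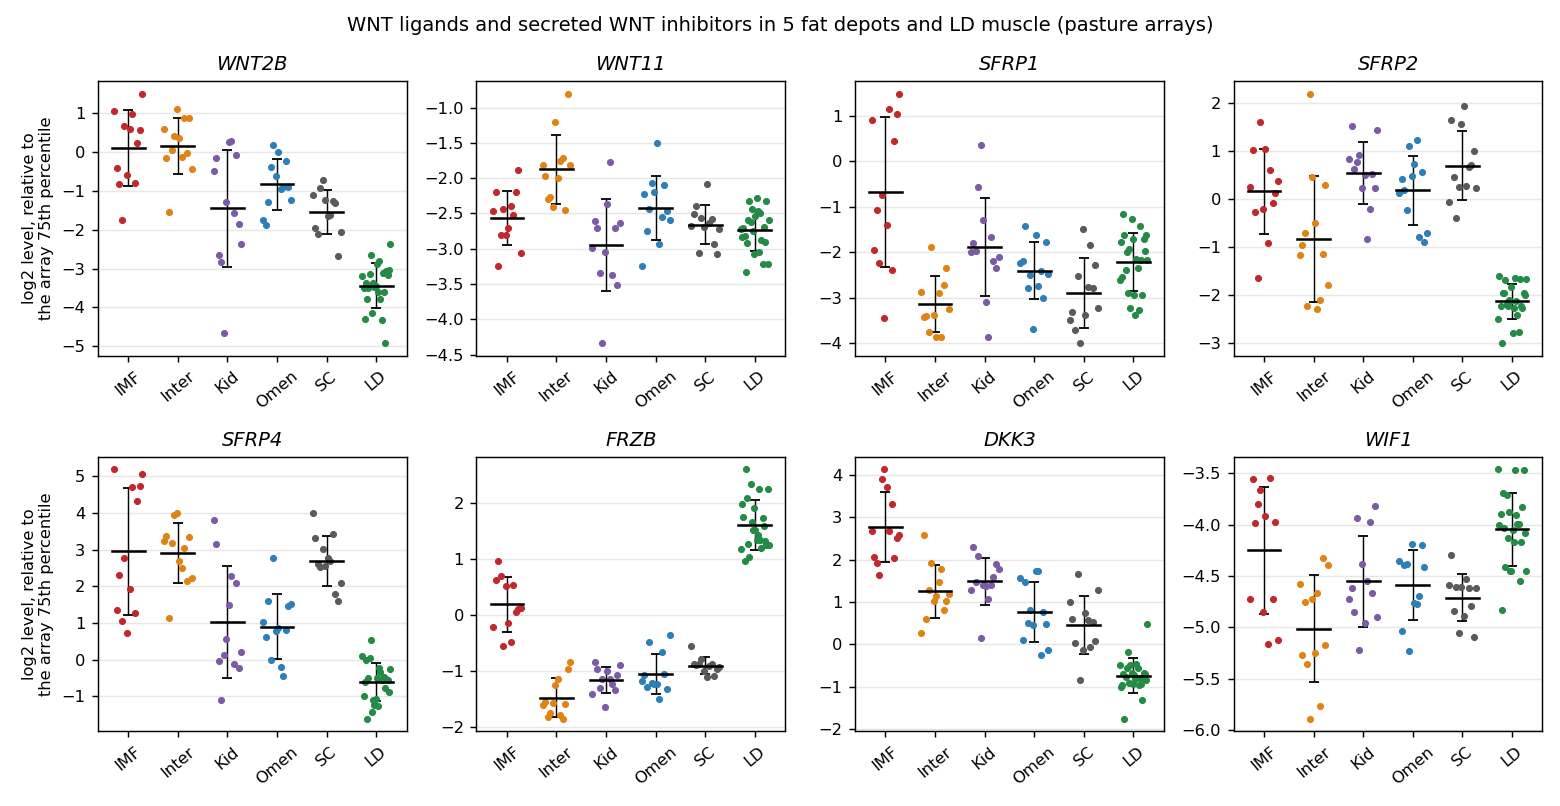
Log2 level relative to the 75th percentile of the array (y axis) of the 8 genes in 5 fat depots and LD muscle, 1 point per array of pasture animals (12 per fat depot, 24 for LD), with the mean (bar) and SD (whiskers). DKK3 stood highest in IMF, at 2.76 ± 0.82, and FRZB in LD, at 1.62 ± 0.45, while WNT2B, SFRP2, SFRP4 and DKK3 were lowest in LD.

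WNT2B encodes a ligand of the canonical pathway. Its level in Inter ran from -1.54 to 1.10 around a median of 0.20, and in IMF from -1.75 to 1.50 around 0.39. In Omen it ran from -1.87 to 0.18 with a median of -0.91, in SC from -2.67 to -0.73 with a median of -1.47, and in LD from -4.92 to -2.36 with a median of -3.42. Kid arrays were the most scattered, from -4.66 to 0.29 around -1.43. No LD array reached the lowest IMF or Inter array, and 11 of 12 Inter arrays lay above every SC array, as did 9 of 12 IMF arrays. WNT2B was higher than in SC by 1.72 ± 0.25 (log2, SE) in Inter (adjusted p = 6.84e-06, limma), by 1.66 ± 0.31 in IMF (adjusted p = 5.12e-05) and by 0.72 ± 0.24 in Omen (adjusted p = 0.015), and lower with a difference of -1.88 ± 0.20 in LD (adjusted p = 4.47e-11). In the order Inter, IMF, Omen, Kid, SC and LD, the neighbours IMF and Omen (0.93 ± 0.32, adjusted p = 0.0155) and SC and LD differed, and Inter and IMF (adjusted p = 0.888), Omen and Kid (adjusted p = 0.383) and Kid and SC (adjusted p = 0.874) did not pass the test. A second probe for WNT2B, outside the probes tested, was well above background on 12 of 12 IMF, Inter and Omen arrays, on 8 SC and 9 Kid arrays, and on 0 of 24 LD arrays. With scan day as a block, the difference from SC was 1.35 in IMF (adjusted p = 0.248), which then rests on the 1 SC array scanned on the third day, and 0.36 in Omen (adjusted p = 0.807). Over all 96 arrays with the same block it was 1.46 in IMF (adjusted p = 0.00306) and 0.49 in Omen (adjusted p = 0.402), and within the Angus arrays alone the IMF difference was 0.66 (adjusted p = 0.327).

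WNT11 encodes a ligand known mainly for signalling without beta-catenin. The tissue that stood out was Inter, where the level ran from -2.45 to -0.80 around -1.90. The other 5 tissues overlapped widely, with medians of -2.46 in Omen, -2.50 in IMF, -2.65 in SC, -2.71 in LD and -2.85 in Kid. Kid had both the lowest array, at -4.34, and one as high as -1.77. Inter exceeded SC by 0.78 ± 0.16 (adjusted p = 0.000252, limma), or 1.72-fold, with 8 of 12 Inter arrays above all SC arrays. It also exceeded Kid by 1.08 ± 0.23 (adjusted p = 0.00406), and Omen by 0.55 ± 0.19 (adjusted p = 0.0483), and IMF was lower than Inter with a difference of -0.69 ± 0.17 (adjusted p = 0.00153). No other pair of neighbours in the order Inter, Omen, IMF, SC, LD and Kid passed the test, with adjusted p from 0.209 to 0.536. Inter and SC share no scan day, so this difference cannot be told apart from the day of scan within those 24 arrays. With scan day as a block over all 96 arrays it was 0.62 (adjusted p = 0.00997).

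DKK3 had the largest difference between IMF and SC among the main probes of the 8 genes. Its levels there ran from 1.64 to 4.13 around a median of 2.64, against -0.83 to 1.66 around 0.55 in SC, so that 11 of 12 IMF arrays lay above every SC array. Kid ran from 0.16 to 2.30 around 1.44, Inter from 0.26 to 2.57 around 1.15, and Omen from -0.25 to 1.74 around 0.64. LD lay below all of these in the main, from -1.76 to 0.49 around -0.74, and did not overlap with IMF. IMF exceeded SC by 2.31 ± 0.29 (adjusted p = 2.97e-07, limma) and LD by 3.50 ± 0.20 (adjusted p = 2.6e-17), so the IMF level was above that of SC and above that of the muscle it was dissected from. Kid and Inter exceeded SC by 1.03 ± 0.24 (adjusted p = 0.00143) and 0.80 ± 0.26 (adjusted p = 0.0126). Neighbours in the order IMF, Kid, Inter, Omen, SC and LD differed at both ends, IMF from Kid by 1.28 ± 0.27 (adjusted p = 0.000346) and SC from LD, and the pairs between did not pass (adjusted p from 0.226 to 0.508). With scan day as a block the IMF difference from SC was 2.91 (adjusted p = 0.0085). Leaving out any 1 of the 24 arrays kept it between 2.19 and 2.42.

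FRZB, also called sFRP3, is a soluble Frizzled-related protein known from cartilage and muscle. By the probe with the higher level, LD arrays ran from 0.97 to 2.61 around 1.52 and IMF arrays from -0.55 to 0.97 around 0.12. The other fat depots lay close together, with SC from -1.10 to -0.54 around -0.89, Omen from -1.50 to -0.35 around -1.19, Kid from -1.63 to -0.83 around -1.13 and Inter from -1.85 to -0.83 around -1.57. LD and the 4 fat depots other than IMF did not overlap, and 11 of 12 IMF arrays lay above every SC array. FRZB was higher in IMF than in SC by 1.09 ± 0.14 (adjusted p = 4.48e-07, limma) and lower in IMF than in LD with a difference of -1.43 ± 0.16 (adjusted p = 3.51e-10). The order was LD, IMF, SC, Omen, Kid and Inter, in which the last 3 pairs of neighbours did not pass (adjusted p from 0.0773 to 0.57). Small differences from SC were called in Inter, at -0.57 ± 0.11 (adjusted p = 0.000121), and in Kid, at -0.26 ± 0.08 (adjusted p = 0.0157). With scan day as a block over all 96 arrays these were -0.05 (adjusted p = 0.811) and 0.02 (adjusted p = 0.918), and within the Kid and SC arrays alone the block gave -0.10 for Kid (adjusted p = 0.39).

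A second FRZB probe gave the same order of LD, IMF and the rest on a wider scale. It was well above background on all 24 LD and 12 IMF arrays, but on 4 of 12 SC, 8 Inter, 8 Omen and 11 Kid arrays. Its mean level was 1.08 ± 0.54 (SD) in LD, -0.75 ± 0.75 in IMF and -6.91 ± 0.88 in SC. IMF and SC did not overlap by this probe. With each array raised to at least its lowest signal well above background, the SC mean was -5.93 and the IMF mean -0.75. The measured difference of 6.16 ± 0.32 (adjusted p = 3.54e-14, limma) is larger because it rests on SC signals mostly near background. By the measured values Kid exceeded SC by 1.22 ± 0.33 (adjusted p = 0.005, limma) and Inter by 1.03 ± 0.47 (adjusted p = 0.0705), opposite in sign to the first probe. With arrays raised to their lowest signal well above background, Kid was at -5.69 and Inter at -5.72, both close to SC. The second probe thus gives no direction for these depots against SC that is clear of background. Over the 15 pairs of tissues the sign of the measured difference was shared with the first probe in 10, and over the 84 arrays of pasture animals the probes had a Pearson r of 0.915. The Inter array with the muscle marker mean of 5.95 had a level of -3.18 by the second probe, the highest of its depot.

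**Figure D2:**
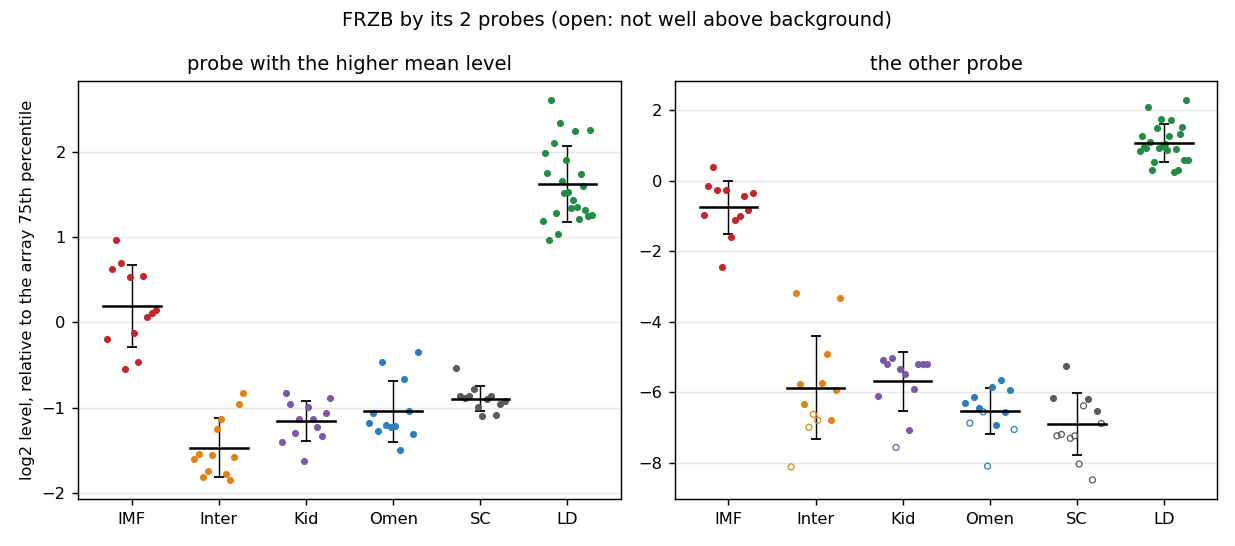
Log2 level relative to the 75th percentile of the array (y axis) of FRZB by its 2 probes in 6 tissues, 1 point per array, with the mean (bar) and SD (whiskers), open points being spots not well above background. Both probes put LD highest and IMF next, and by the second probe 8 of 12 SC arrays were not well above background.

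SFRP1 and SFRP4 bind WNT ligands outside the cell, and both were unevenly spread among the IMF arrays. SFRP1 ran from -3.44 to 1.49 in IMF around a median of -0.91, a range of levels wider than in Kid (-3.86 to 0.35, median -1.98), LD (-3.37 to -1.15, median -2.16), Omen (-3.68 to -1.43, median -2.44), SC (-4.00 to -1.48, median -3.00) or Inter (-3.87 to -1.89, median -3.32). The highest 8 IMF arrays exceeded all SC arrays and the other 4 lay within the SC range. SFRP1 was higher in IMF than in SC by 2.22 ± 0.50 (adjusted p = 0.000441, limma) and than in LD by 1.54 ± 0.37 (adjusted p = 0.000318). In Kid it was higher than in SC by 1.02 ± 0.36 (adjusted p = 0.027), while the other SFRP1 probes gave 0.85 ± 0.35 (adjusted p = 0.0565) and 0.61 ± 0.39 (adjusted p = 0.224). No pair of neighbours in the order IMF, Kid, LD, Omen, SC and Inter passed the test, the closest being IMF and Kid (1.20 ± 0.54, adjusted p = 0.0625), a pair that was called by both other SFRP1 probes (adjusted p = 0.0336 and 0.0296). The IMF difference from SC was 0.80 with scan day as a block (adjusted p = 0.709), 2.51 with that block over all 96 arrays (adjusted p = 4.08e-06), and 1.11 and 1.94 within Angus and Hereford (adjusted p = 0.301 and 0.122). The Kid difference lost its call with scan day as a block (1.05, adjusted p = 0.0839), with slide as a random block (0.85, adjusted p = 0.114) and without 1 Wagyu x Angus Kid array (0.82, adjusted p = 0.05).

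SFRP4 was high in 3 of the fat depots. It ran from 0.71 to 5.19 around 2.55 in IMF, from 1.12 to 3.99 around 3.11 in Inter, and from 1.60 to 3.99 around 2.65 in SC. Kid ran from -1.11 to 3.80 around 0.38, Omen from -0.45 to 2.77 around 0.83 and LD from -1.62 to 0.52 around -0.53. SFRP4 was lower than in SC in Omen with a difference of -1.80 ± 0.31 (adjusted p = 4.45e-05, limma), in Kid with a difference of -1.68 ± 0.46 (adjusted p = 0.00483) and in LD with a difference of -3.32 ± 0.20 (adjusted p = 5.23e-18), and LD did not overlap with SC, Inter or IMF. The order was IMF, Inter, SC, Kid, Omen and LD, with called steps from SC to Kid and from Omen to LD, while IMF and Inter (adjusted p = 0.937), Inter and SC (adjusted p = 0.6) and Kid and Omen (adjusted p = 0.897) did not pass. With scan day as a block the Omen difference was -1.91 (adjusted p = 0.116) and the Kid difference -1.56 (adjusted p = 0.0435). Of the fibroblast and adipose progenitor markers, 6 of 10 were lower than in SC in Kid (41.7% of all probes called). In Omen 7 of 10 were lower (46.6%) and in LD 10 of 10 (82.9%), with none higher. With scan day as a block 6 of 10 were lower in Kid (32.9%), while for Omen that block rests on the 1 SC array scanned on the third day. Over all 96 arrays with the block, 7 of 10 were lower in Kid (39.5%) and 3 of 10 in Omen (28.7%). The part of these markers was not tested. A second SFRP4 probe gave the same calls in all 15 pairs of tissues.

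SFRP2 encodes a further soluble Frizzled-related protein. SC ran from -0.39 to 1.94 around 0.56, Kid from -0.83 to 1.52 around 0.58, Omen from -0.90 to 1.24 around 0.31 and IMF from -1.64 to 1.61 around 0.19. Inter lay lower, from -2.28 to 2.20 around -1.05, and LD lowest, from -3.00 to -1.60 around -2.13. All LD arrays lay below all SC, Kid and Omen arrays. Inter was lower than SC with a difference of -1.52 ± 0.41 (adjusted p = 0.00387, limma) and LD with a difference of -2.83 ± 0.18 (adjusted p = 2.04e-17), while IMF had a difference of -0.53 ± 0.31 (adjusted p = 0.14). By the other SFRP2 probe that difference was -0.73 ± 0.31 and was called (adjusted p = 0.0462). In the order SC, Kid, Omen, IMF, Inter and LD only the last neighbours, Inter and LD, differed (1.30 ± 0.28, adjusted p = 5.5e-05), with IMF and Inter at an adjusted p of 0.0516.

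WIF1, the WNT inhibitory factor, had the largest adjusted p of the 8 genes in the F test over fat depots, 0.00444. It ran from -4.83 to -3.46 around -4.01 in LD, from -5.16 to -3.55 around -3.97 in IMF, from -5.22 to -3.82 around -4.64 in Kid and from -5.09 to -4.29 around -4.62 in SC. Omen, over 11 arrays because 1 outlier spot was left out, ran from -5.23 to -4.19 around -4.41, and Inter from -5.89 to -4.32 around -4.96. LD exceeded SC by 0.67 ± 0.11 (adjusted p = 1.35e-06, limma). No pair of neighbours in the order LD, IMF, Kid, Omen, SC and Inter passed the test (adjusted p from 0.119 to 0.926). IMF exceeded SC by 0.46 ± 0.18 (adjusted p = 0.031), a value that was -0.14 after normexp background correction (adjusted p = 0.282). The call was also lost with slide as a random block (0.46, adjusted p = 0.0651), with scan day as a block (0.36, adjusted p = 0.648) and without each of 7 single arrays in turn. By the second WIF1 probe IMF exceeded SC by 0.84 ± 0.23 (adjusted p = 0.00324, limma), with 6 of 12 SC arrays well above background. That probe shared the sign of the difference in 12 of 15 pairs of tissues, whereas both other SFRP1 probes and the other SFRP2 probe shared it in 15.

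**Figure D3:**
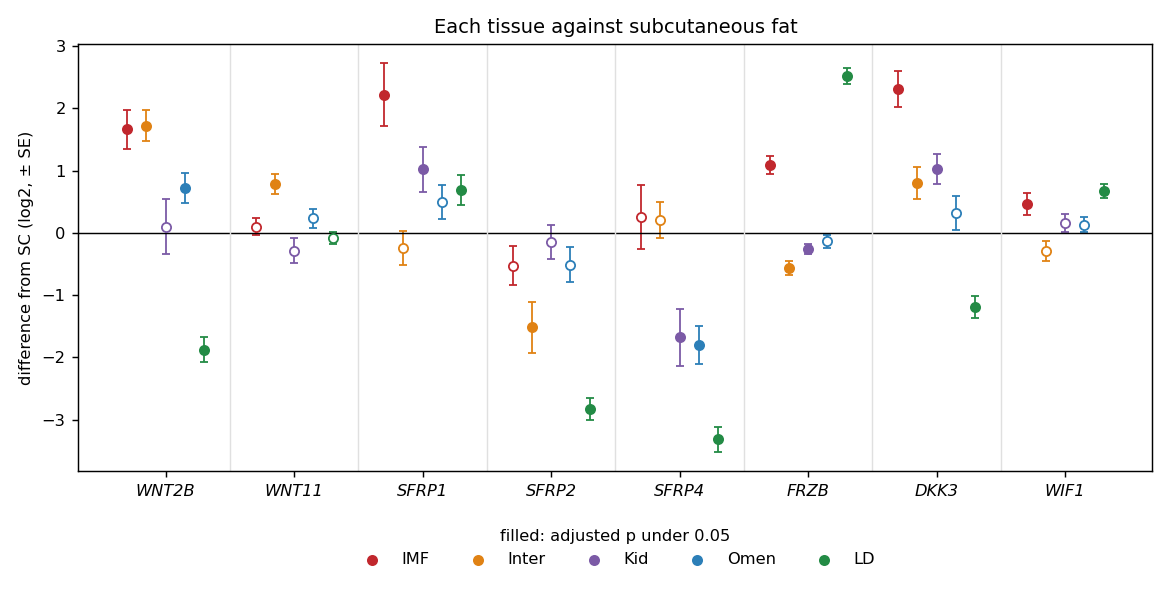
Difference in log2 level from SC (y axis) of each gene (x axis) in IMF, Inter, Kid, Omen and LD of pasture animals, as the fitted difference with its SE, filled where the adjusted p was under 0.05. In IMF 5 genes were called, all above SC, and in LD 7, of which FRZB had the largest rise (2.52) and SFRP4 the largest fall (-3.32).

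Counts of calls are set here beside the share of all 34227 probes called in the same comparison. Against SC, 5 of 8 genes were called in IMF, all higher, where 64.3% of all probes were called, and the median absolute log2 difference was 0.81 for the 8 genes and 0.43 for all probes. In Inter 5 of 8 were called (48.8% of all probes), WNT2B, WNT11 and DKK3 higher and SFRP2 and FRZB lower. Kid had 4 of 8 (41.7% of all probes), DKK3 and SFRP1 higher and SFRP4 and FRZB lower, and Omen had 2 of 8 (46.6%), WNT2B higher and SFRP4 lower. In LD 7 of 8 were called (82.9%), all but WNT11, with FRZB, WIF1 and SFRP1 higher. The rise of SFRP1 in LD (0.68 ± 0.24, adjusted p = 0.00833, limma) lost its call with slide as a random block (0.52, adjusted p = 0.14) and was -0.03 within Angus (adjusted p = 0.953). These shares of members lie near the background in IMF, Inter, Kid and LD and below it in Omen. The 4 fat depots and LD were all set against the same 12 SC arrays, so the comparisons are not independent of each other.

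IMF differed from LD in 6 of 8 genes (75.3% of all probes), with WNT2B, SFRP1, SFRP2, SFRP4 and DKK3 higher in IMF and FRZB lower. The differences of SFRP4 (3.57 ± 0.37, adjusted p = 5.2e-11, limma), WNT2B (3.54 ± 0.25, adjusted p = 4.55e-15) and DKK3 were over 3 log2 units with no overlap of arrays. The muscle markers were higher on every LD array of pasture animals (8.56 and above) than on any IMF array (8.14 and below). IMF differed from Inter in 5 genes (62.9% of all probes), from Kid in 4 (56.1%) and from Omen in 5 (57.6%), and apart from WNT11 against Inter each of these calls had IMF higher. DKK3 and FRZB were called in all 3. Inter differed from LD in all 8 genes (83.6%), Kid in 6 (79.8%) and Omen in 7 (82%). For Omen WNT11 was no longer called under any block run, at 0.16 with scan day (adjusted p = 0.247, limma), 0.21 with scan day over all 96 arrays (adjusted p = 0.215) and 0.33 with slide (adjusted p = 0.0872). That left 6 genes under each (81.7%, 81.5% and 74.4% of all probes). Among the fat depots other than IMF and SC, where fewer probes differed, Inter and Kid differed in 5 of 8 genes against 15.4% of all probes, and Inter and Omen in 5 of 8 against 14.5%. WNT2B, WNT11 and SFRP4 were higher in Inter in both, for SFRP4 by 1.88 ± 0.47 against Kid (adjusted p = 0.0116) and by 2.0 ± 0.33 against Omen (adjusted p = 0.000406), and SFRP1 was lower in both. Of the other SFRP1 probes, one was called lower in both as well (-1.21, adjusted p = 0.0158, and -0.91, adjusted p = 0.0128) and one in neither (-0.81, adjusted p = 0.161, and -0.57, adjusted p = 0.185). SFRP2 was also lower in Inter than in Kid (-1.37 ± 0.40, adjusted p = 0.0254), and FRZB than in Omen (-0.43 ± 0.14, adjusted p = 0.0413). Between Kid and Omen 0 of 8 genes were called by limma (13% of all probes were called, and 9790 probes had an unadjusted p under 0.05), the closest being DKK3 (0.72 ± 0.25, adjusted p = 0.0571). Scan day touches these pairs, since all 12 Inter arrays were scanned on the second day and 10 of 12 Omen arrays on the third. When scan day was a block, Inter and Omen differed in 0 genes by limma (0.961% of all probes), with SFRP4 at 0.75 ± 0.56 (adjusted p = 0.583). With that block over all 96 arrays they differed in 2, WNT11 and SFRP4 (20.4%). Inter and Kid differed in 3 genes with that block, WNT11, SFRP4 and WIF1 (8.07% of all probes), and in 6 over all 96 arrays (23.2%). For IMF and Kid that block rests on the 1 Kid array scanned on the third day, and the FRZB difference was then 1.54. Over all 96 arrays IMF and Kid differed in 5 genes (52.9%). Kid and Omen differed in 0 genes with the block (0.543% of all probes), with DKK3 at 1.02 ± 0.40 (adjusted p = 0.19, limma). Over all 96 arrays they differed in DKK3 alone (0.80 ± 0.28, adjusted p = 0.031), where 21.5% of all probes were called. When slide was a random block, Inter and Kid differed in WNT11 alone (3.68% of all probes) and Inter and Omen in WNT2B and SFRP4 (7.33%).

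Breed made no called difference to these genes over the fat depots. In an F test of breed over the 60 fat arrays with depot as a covariate, 0 of 8 passed (3.45% of all probes), and DKK3 had the smallest unadjusted p, 0.0217 (adjusted p = 0.202, limma). By pairs, 0 of 8 genes were called between Hereford and Angus (0.631% of all probes), between Wagyu x Angus and Angus (0.824%) and between Wagyu x Angus and Hereford (3.75%). DKK3 was 0.58 ± 0.20 higher in Wagyu x Angus than in Angus with an adjusted p of 0.179. In the test of whether the difference between IMF and SC depended on breed, with 4 arrays per cell, 0 of 8 genes and 0.00584% of all probes were called, and a missed call does not show that the difference was alike in the breeds. The WNT2B difference was 0.66 ± 0.51 within Angus and 2.47 ± 0.48 within Hereford. DKK3 had an unadjusted p of 0.0271 and an adjusted p of 0.762 there.

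In LD of pasture animals 3 of 8 genes differed between breeds (14.7% of all probes). FRZB was lowest in Angus, where 8 arrays ran from 1.04 to 1.44 around 1.27, against 0.97 to 2.10 around 1.63 in Hereford and 1.53 to 2.61 around 2.0 in Wagyu x Angus. Every Wagyu x Angus array lay above every Angus array, and the difference was 0.73 ± 0.15 (adjusted p = 0.0218, limma). This was the 1 gene called between these breeds, where 3.53% of all probes were called. WNT11 ran from -2.72 to -2.28 around -2.48 in Angus, from -3.21 to -2.75 around -2.89 in Hereford and from -3.33 to -2.44 around -2.70 in Wagyu x Angus. Angus and Hereford did not overlap, and Hereford was lower with a difference of -0.45 ± 0.09 (adjusted p = 0.00532). SFRP1 ran from -3.37 to -1.98 around -2.39 in Angus, from -2.39 to -1.15 around -1.71 in Hereford and from -3.22 to -1.63 around -2.44 in Wagyu x Angus, and was 0.86 ± 0.24 higher in Hereford than in Angus (adjusted p = 0.0323). Hereford and Angus thus differed in 2 genes (9.07% of all probes) and Wagyu x Angus and Hereford in 0 (8.42%, with 10060 probes at an unadjusted p under 0.05). In the test over the 3 breeds the adjusted p was 0.0182 for FRZB, 0.0262 for WNT11 and 0.0498 for SFRP1. Leaving out each of the 24 arrays in turn kept FRZB called in 24 cases, WNT11 in 23 and SFRP1 in 6. All 8 Angus arrays lay on 2 slides that held no other breed. With slide as a random block 0 of 8 genes were called, FRZB having an adjusted p of 0.329 (unadjusted p = 0.00157, limma), WNT11 0.576 and SFRP1 0.834, and 0% of all probes passed. Blocking on scan day instead, FRZB was called (adjusted p = 0.0181), as was WIF1 (adjusted p = 0.046), and WNT11 and SFRP1 were not (adjusted p = 0.178 and 0.276).

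Cell type markers moved with breed in LD too. The adipocyte markers had a median of 1.36 in Angus, 0.58 in Wagyu x Angus and -0.54 in Hereford, and the skeletal muscle markers 8.66 in Angus, 8.82 in Wagyu x Angus and 8.91 in Hereford. WNT11, the gene higher in Angus, rose with the adipocyte markers over the 24 arrays, but not once slide means were removed. FRZB, lower in Angus, rose with the muscle markers, less closely after that removal (values below). The Angus arrays share no slide with another breed, so relations over these arrays are not independent of the breed differences. The Schwann cell markers had a median of -1.92 in Hereford, -2.13 in Angus and -2.32 in Wagyu x Angus, and SFRP1, the gene higher in Hereford, followed them over the 24 arrays. The part of these markers in the breed differences was not tested.

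Supplemental feeding could be compared in LD alone. WNT11 was the 1 gene of 8 called (11.2% of all probes), lower with supplement with a difference of -0.24 ± 0.08 (adjusted p = 0.0467, limma) in a fit with breed as a covariate. With supplement its 4 arrays per breed had medians of -2.88 (Angus), -3.01 (Hereford) and -2.99 (Wagyu x Angus), against -2.48, -2.89 and -2.70 on pasture, and the groups overlapped in Hereford and Wagyu x Angus and, by 1 array each, in Angus. This call was lost with scan day as a block (-0.13, adjusted p = 0.36) and with slide as a random block (-0.24, adjusted p = 0.7), and held without 11 of the 36 arrays in turn and not without the other 25. Each slide with supplement arrays held those of 1 breed and no pasture array, so slide and feed cannot be told apart. The slaughter groups within LD and the feed cannot be told apart either. In Angus the adipocyte markers had a median of 1.36 on pasture and -0.68 with supplement. The endothelial markers were higher with supplement, with 4 of 6 called, and their medians went from 0.81 to 1.27 (Angus), from 1.14 to 1.42 (Hereford) and from 0.74 to 1.18 (Wagyu x Angus). The part of either list in the difference was not tested.

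The difference of SFRP1 between supplement and pasture itself differed between breeds by the test of the interaction (adjusted p = 0.0215, limma). It was the 1 gene of 8 called by its main probe, where 16.1% of all probes were called. The second WIF1 probe also passed (adjusted p = 0.0106), and the main WIF1 probe did not (adjusted p = 0.312). Neither other SFRP1 probe passed this test (adjusted p = 0.0568 and 0.367), and by the latter the Hereford means were -2.79 with supplement and -2.80 on pasture. Its mean was -1.61 with supplement and -2.56 on pasture in Angus, -1.86 and -2.39 in Wagyu x Angus, and -2.35 and -1.70 in Hereford. The difference was thus 0.95 ± 0.28 in Angus (adjusted p = 0.0694, limma), 0.54 ± 0.31 in Wagyu x Angus (adjusted p = 0.358) and -0.66 ± 0.28 in Hereford (adjusted p = 0.143). Within single breeds 0 of 8 genes were called, with 5.22% of all probes for Angus, 6.66% for Hereford and 3.44% for Wagyu x Angus. Without 1 Hereford supplement array, the lowest of its group at -3.25, the interaction had an adjusted p of 0.0892, and with scan day as a block 0.176. With slide as a random block 0 of 8 genes passed (for SFRP1 the unadjusted p was 0.207). The Schwann cell markers moved the same way, with medians from -2.13 on pasture to -1.66 with supplement in Angus, from -2.32 to -1.94 in Wagyu x Angus and from -1.92 to -2.26 in Hereford. The adipocyte medians moved from 1.36 to -0.68 in Angus, from 0.58 to -0.42 in Wagyu x Angus and from -0.54 to -0.26 in Hereford. The mesothelium medians moved from -0.11 to 0.23 in Angus, from 0.05 to 0.0 in Wagyu x Angus and from 0.11 to -0.26 in Hereford. The part of any of these lists was not tested.

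**Figure D4:**
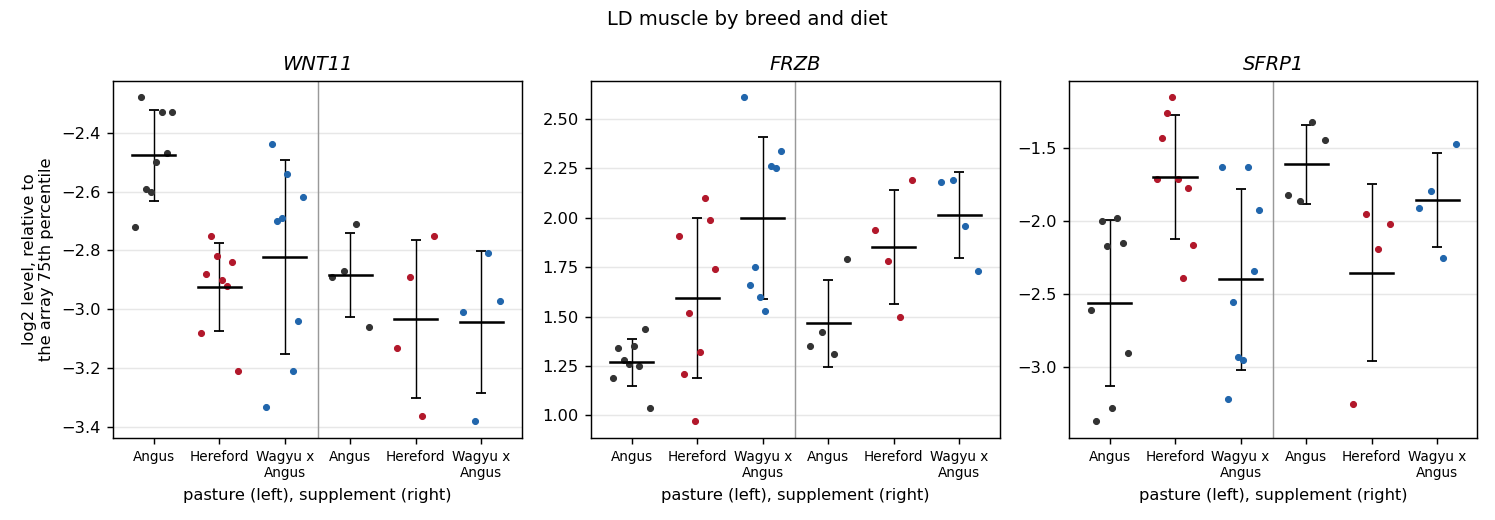
Log2 level relative to the 75th percentile of the array (y axis) of WNT11, FRZB and SFRP1 in LD by breed, with pasture animals left of the line (8 arrays per breed) and supplement animals right of it (4 per breed), as points with the mean (bar) and SD (whiskers). On pasture FRZB had a mean of 1.27 (Angus), 1.59 (Hereford) and 2.0 (Wagyu x Angus), and by the SFRP1 probe plotted, the mean was -1.61 with supplement against -2.56 on pasture in Angus and -2.35 against -1.70 in Hereford, a pattern that neither other SFRP1 probe passed the test for.

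The rest of the pathway is described by lists ordered by role, with counts read against the percentages given for each comparison. Of 16 other WNT ligands 2 had a probe tested. WNT6 was higher in IMF, at -1.65 ± 1.90 (SD, n = 12), than in SC, at -4.06 ± 0.69, a difference of 2.41 ± 0.55 (adjusted p = 0.000537, limma). WNT2 went the other way, at -3.97 ± 0.50 in IMF and -1.94 ± 0.48 in SC (-2.03 ± 0.19, adjusted p = 2.78e-09). Both ligands were called lower than SC in Kid. Of 8 other secreted inhibitors 4 had a probe, and all 4 differed among the fat depots. DKK1, which binds the LRP co-receptors, was higher than in SC in IMF (2.83 ± 0.24, adjusted p = 3.6e-10) and in LD (3.51 ± 0.25, adjusted p = 6.4e-16), but its probe was well above background on 5 of 12 SC arrays. DKK2 was lower than in SC in Kid (-1.89 ± 0.33, adjusted p = 6.85e-05) and Omen (-1.92 ± 0.28, adjusted p = 5.77e-06), the 2 fat depots in which SFRP4 was lower. SOST, known as the sclerostin gene of bone cells, was lower than in SC in IMF (-1.29 ± 0.31, adjusted p = 0.000992) and in Kid (-2.73 ± 0.34, adjusted p = 9.73e-07).

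Receptors moved in both directions. Of 18 receptors and co-receptors 8 had a probe, and between IMF and SC 4 were higher and 2 lower. FZD4 was lower in IMF with a difference of -1.66 ± 0.23 (adjusted p = 1.05e-06, limma), and FZD10 and FZD7 were higher by 1.24 ± 0.23 (adjusted p = 6.4e-05) and 0.59 ± 0.13 (adjusted p = 0.000393). The R-spondins strengthen WNT signalling by removing the ubiquitin ligases that clear its receptors. RSPO2 was at 2.01 ± 0.32 (SD, n = 24) in LD, 0.01 ± 1.17 in IMF and -4.93 ± 0.99 in SC, with a difference of 4.94 ± 0.42 between IMF and SC (adjusted p = 4.52e-10). As with FRZB, LD was highest and IMF next. RNF43, such a ligase, was 1.03 ± 0.24 higher in IMF than in SC (adjusted p = 0.000702), but its probe was well above background on 4 of 12 SC arrays. For WNT release, WLS, the carrier of WNT proteins to the cell surface, was highest against SC in Inter (0.61 ± 0.11, adjusted p = 5.39e-05), and PORCN, which adds the lipid to WNT proteins, was lower there (-0.58 ± 0.08, adjusted p = 1.65e-06).

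Inside the cell, all 7 of 10 destruction complex genes with a probe differed among the fat depots. AXIN1 was higher in IMF than in SC by 0.84 ± 0.12 (adjusted p = 1.91e-06, limma) and GSK3B lower with a difference of -0.73 ± 0.08 (adjusted p = 4.82e-08), and GSK3A was lower in Inter than in SC with a difference of -0.49 ± 0.07 (adjusted p = 1.97e-06). Of 8 nuclear effectors with a probe, 3 were higher and 4 lower in IMF than in SC. PYGO1, a co-activator of beta-catenin, was higher by 2.10 ± 0.16 (adjusted p = 6.73e-11), and TLE3, a co-repressor, lower with a difference of -1.54 ± 0.14 (adjusted p = 1.3e-09). CTNNBIP1, which keeps beta-catenin from TCF factors, was lower with a difference of -0.64 ± 0.10 (adjusted p = 5.37e-06). Of 8 genes used as readouts of WNT signalling 6 had a probe. In Omen 5 of these 6 were higher than in SC and none lower, in IMF 4 were higher and 2 lower, in Inter 1 was higher, and in Kid 0 were called by limma. NKD1, a feedback inhibitor, was higher than in SC by 1.57 ± 0.27 in IMF (adjusted p = 2.38e-05) and 1.41 ± 0.19 in Omen (adjusted p = 3.16e-06), and TNFRSF19 by 1.80 ± 0.25 (adjusted p = 8.29e-07) and 1.07 ± 0.34 (adjusted p = 0.0125). MYC rose in Omen (1.10 ± 0.21, adjusted p = 0.000137) and fell in IMF (-0.94 ± 0.23, adjusted p = 0.00099).

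The calls of these role lists were made without scan day. Of the 40 list genes with a probe, 30 were called between IMF and SC, 15 for Inter, 18 for Kid, 22 for Omen and 35 for LD. When scan day was a block, 8 of the 30 held their call and sign in IMF (20.1% of all probes were called) and 11 of the 18 in Kid (32.9%), while in Omen 0 of 40 were called by limma (5.19%) and 8 had an unadjusted p under 0.05, so that NKD1, for example, had 1.12 (adjusted p = 0.216) and MYC 1.46 (adjusted p = 0.122). For IMF the genes named above that kept their call were WNT2, DKK1, FZD4, RSPO2, PYGO1, TLE3 and TNFRSF19, and those that lost it included WNT6 (2.59, adjusted p = 0.216), AXIN1 (0.76, adjusted p = 0.0919) and GSK3B (-0.20, adjusted p = 0.482). When all 96 arrays were fitted with that block, 23 of the 30 held in IMF (50% of all probes), 10 of the 15 in Inter (38.9%), 14 of the 18 in Kid (39.5%) and 14 of the 22 in Omen (28.7%). WNT6 and AXIN1 then passed for IMF, while SOST (-0.96, adjusted p = 0.139), RNF43 (0.85, adjusted p = 0.0547) and CTNNBIP1 (-0.19, adjusted p = 0.353) did not, and neither did PORCN in Inter (-0.24, adjusted p = 0.141). By that fit 3 of the 6 readout genes were higher in Omen than in SC, against 5 without the block. In LD all 35 calls held with either fit.

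The genes whose pattern over the 60 fat arrays was most like that of each member were found among 10390 genes by Pearson's r, given as a description over arrays that share depots. FRZB lay closest to IFITM10 (r = 0.921) and SRPK3 (0.921), the latter a kinase of striated muscle. DKK3 lay closest to CSRP2 (0.866) and NPY1R (0.828), and WNT2B to RADIL (0.839) and ISLR (0.805). For SFRP4 the nearest were CERCAM (0.819) and IGFBP6 (0.790), for SFRP1 AKR1B1 (0.802) and CMTM5 (0.788), and for WNT11 SESTD1 (0.806) and TNXB (0.777). WIF1 lay closest to RUNDC3A (0.794) and FATE1 (0.791), and SFRP2 to WDR86 (0.649) and C1QTNF6 (0.623). After depot means were removed these values ran from 0.562 (DKK3 with NPY1R) to 0.808 (WNT2B with ISLR), with 0.716 for FRZB with SRPK3 and 0.647 for SFRP1 with AKR1B1. Among the members themselves, WNT2B went with WNT11 (r = 0.63) and with SFRP4 (0.62).

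Within each tissue the array levels of the 8 genes were set against the 9 marker lists, which makes 432 relations tested by permutation with 100000 resamples and adjusted over all of them. These relations were looked for after values had been seen. Both Pearson's r and Spearman's rho passed in 13, of which 6 were in LD, 3 in IMF, 3 in Kid, 1 in Inter and 0 in SC and in Omen. In IMF the largest gap between neighbouring arrays was 1.53 for SFRP4 (0.34 of its range), with 7 arrays up to 2.78 and 5 from 4.31. The same 5 arrays lay from 0.44 for SFRP1 against at most -0.74 in the other 7, a gap of 0.24 of its range. Whether these are separate sets of arrays was not tested. The Schwann cell markers, of the cells that wrap peripheral nerve, ran from 1.19 to 2.73 on those 5 arrays and from -2.54 to 0.20 on the 7. No pooled r is given, though SFRP4 and SFRP1 with these markers are 2 of the 3 relations counted for IMF. Within the 7 lower arrays r was 0.87 and rho 0.71 for SFRP4 (unadjusted permutation p = 0.017 and 0.088), and 0.75 and 0.64 for SFRP1 (0.051 and 0.14). SFRP4 was about as high in SC, where the Schwann cell markers ran from -4.38 to -1.66. In LD SFRP1 followed the Schwann cell markers with r = 0.76 and rho = 0.73 (adjusted permutation p = 0.0019 and 0.0095), with 0.65 without the 2 arrays farthest from the median and 0.68 after slide means were removed.

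For FRZB in IMF the largest gap was 0.26 of the range, with 7 arrays up to 0.14 and 5 from 0.53. The skeletal muscle markers ran from 6.38 to 7.71 on the 7 and from 8.01 to 8.14 on the 5. No pooled r is given there either, and this is the third relation counted for IMF. Within the 7 lower arrays r was 0.79 and rho 0.61 (unadjusted permutation p = 0.041 and 0.17). In LD FRZB followed the muscle markers with r = 0.77 and rho = 0.64 (adjusted permutation p = 0.0019 and 0.029), 0.70 without the 2 farthest arrays and 0.44 after slide means were removed. WNT2B followed the fibroblast and adipose progenitor markers in Inter with r = 0.88 and rho = 0.92 (adjusted permutation p = 0.0032 and 0.0043) and in Kid with 0.81 and 0.85 (adjusted permutation p = 0.037 and 0.027). For SFRP4 in Kid the largest gap was 0.19 of the range, with 7 arrays up to 0.57 and 5 from 1.5. These fibroblast and progenitor markers ran from 1.51 to 2.04 on the 7 and from 2.49 to 3.24 on the 5. No pooled r is given for this one of the 3 counted for Kid. Within the 7 lower arrays r was 0.73 and rho 0.64 (unadjusted permutation p = 0.04 and 0.14). DKK3 followed the endothelial markers in Kid with 0.90 and 0.86 (adjusted permutation p = 0.0082 and 0.025), and with an r of 0.68 without the 2 farthest arrays. In LD WNT11 followed the adipocyte markers with 0.75 and 0.75, but with 0.13 after slide means were removed, so that relation did not hold within slides. The remaining LD relations ran downward. FRZB fell with rising macrophage markers, with r = -0.68 and rho = -0.67 (adjusted permutation p = 0.0082 and 0.019), -0.69 without the 2 farthest arrays and -0.43 after slide means were removed. SFRP1 with the adipocyte markers gave -0.63 and -0.63 (adjusted permutation p = 0.028 and 0.029), and WNT11 with the mesothelium markers -0.60 and -0.62 (adjusted permutation p = 0.041 and 0.041), but after slide means were removed these were 0.07 and -0.15. DKK3 in IMF passed with no marker list, the nearest being smooth muscle with r = 0.78 and rho = 0.64 (adjusted permutation p = 0.056 and 0.19) and tendon and perimysium with 0.73 and 0.73 (adjusted permutation p = 0.078 and 0.13). The part of any cell type in the depot differences was not tested.

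**Figure D5:**
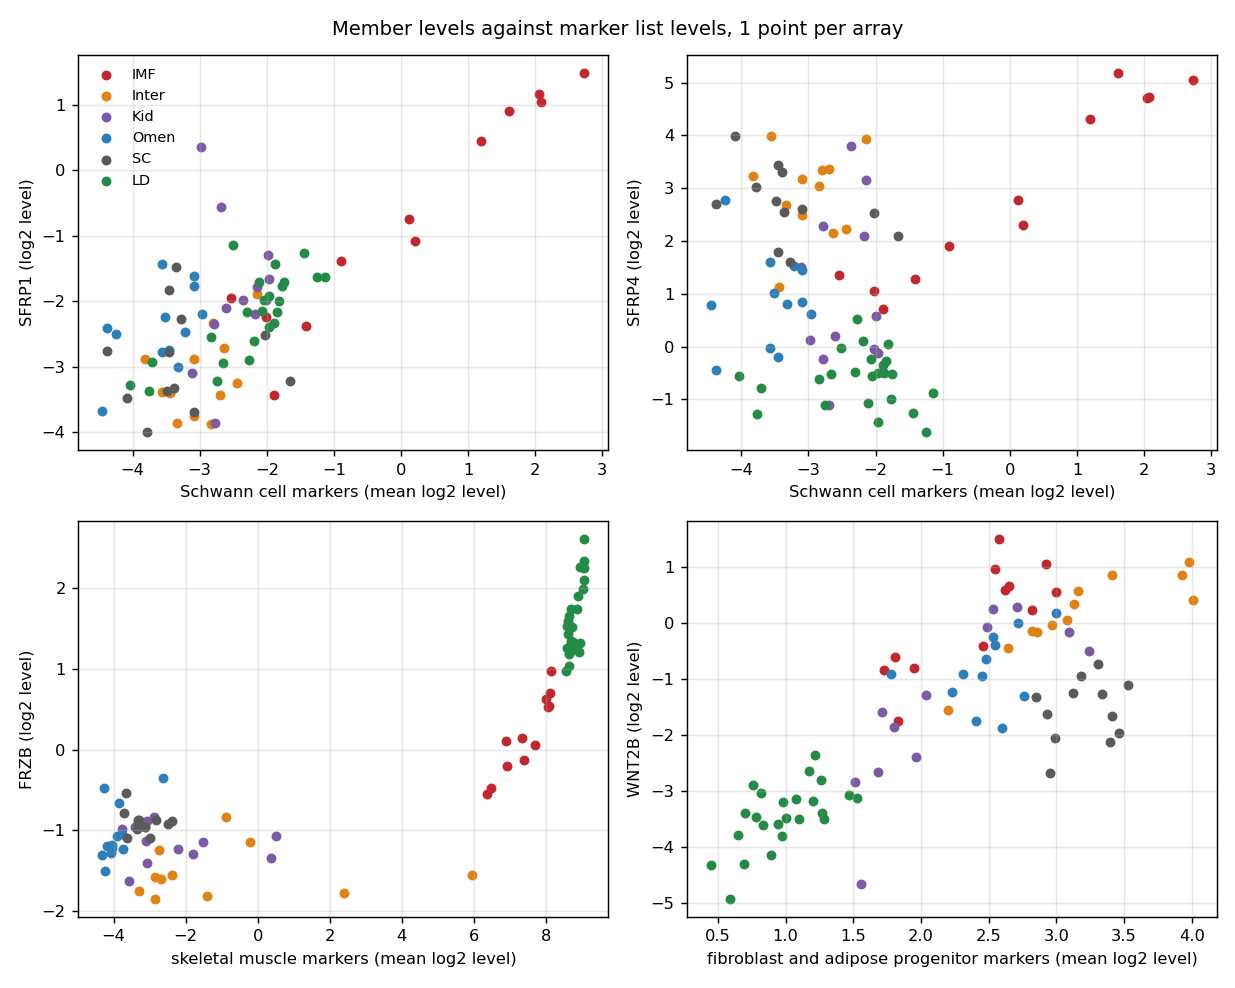
Log2 level of a gene (y axis) against the mean log2 level of a marker list (x axis), 1 point per array of pasture animals, coloured by tissue: SFRP1 and SFRP4 against Schwann cell markers, FRZB against skeletal muscle markers, and WNT2B against fibroblast and adipose progenitor markers. The 5 IMF arrays with Schwann cell markers from 1.19 to 2.73 are the 5 highest in SFRP1 and SFRP4 among IMF arrays, and FRZB is highest where muscle markers are highest, in IMF and LD.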

How the data were processed

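Total RNA of each sample was labelled with Cy3 and hybridised to 1 array of a bovine Agilent 4x44K design, 96 arrays on 24 slides, scanned on 3 days and read with Agilent Feature Extraction 10.7.3.1 per the file headers. Spots hold intensity values that the authors deposited as background-subtracted processed signals. A second table that the authors deposited holds log2 values, and its 3285792 entries all equalled log2 of median signal minus median background within 0.0001, so it is not scaled between arrays and served as an alternative. Its 34227 probes, of 43653 that are not controls, were tested.

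Here the log2 processed signal was taken relative to each array's 75th percentile, outlier spots were left out and spots of 1 probe averaged. Per tissue, a median of 90.7 to 96.6% of tested probes were well above background, and 0 spots were saturated. Groups were compared with limma 3.58.1 in R 4.3.3 (lmFit and eBayes, Benjamini-Hochberg over all tested probes). Pairs of tissues used only their own arrays of pasture animals, and tests of breed and of supplement are as named with each result. Permutation tests used scipy 1.17.1. The fit was tested on simulated data.

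Of the tested probes 21445 were named, 19903 through RefSeq gene records (assembly ARS-UCD2.0, names only) and 4439 through the study's probe tables. Of 2897 named by both, 2752 had the same name. No coordinates or sequences are given because the array's design used an older build. The genes, role lists and marker lists were chosen with earlier results of these data known. Named were the members, up to 3 other genes per role list with the smallest adjusted p over the 5 fat depots, and the 2 genes most like each member. Alternatives were other scalings, probe sets and lead probes, the methods' t-test, blocks for scan day, slide and replicate number, single breeds, and leaving out each array.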

Additional observations from a re-analysis of the deposited data

Results flagged for a closer look

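In 167 sets of arrays (8 genes by tissue, breed and feed) the highest or lowest array was set against the others by Dixon's ratio of its gap to the range of the set, and 11 lay beyond the 95% critical value, where chance gives about 1 in 20. In IMF of Angus, 1 array held the highest SFRP4, 5.19 against 1.06 to 1.36 in the other 3 (ratio 0.927), and the highest SFRP1, 0.91 against -2.38 to -1.95 (ratio 0.869). The Schwann cell markers of that array had a mean of 1.61 against -2.54 to -1.42 in the other 3, and their part was not tested. In SC of Wagyu x Angus, 1 array held the highest SFRP2, 1.94 against -0.05 to 0.28 (ratio 0.834), and the highest WNT11, -2.08 against -2.72 to -2.63 (ratio 0.859).

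The other arrays that stood apart did so in 1 gene each. The highest were SFRP2 in Omen of Angus, 1.11 against -0.90 to -0.71 (ratio 0.905), WNT2B in SC of Angus, -0.73 against -1.31 to -1.25 (ratio 0.897), and SFRP1 in Omen of Angus, -1.77 against -2.50 to -2.41 (ratio 0.877). The lowest were FRZB in Kid of Hereford, -1.63 against -1.14 to -1.07 (ratio 0.875), DKK3 in Omen of Wagyu x Angus, 0.51 against 1.56 to 1.74 (ratio 0.854), WIF1 in LD of Wagyu x Angus given supplement, -4.42 against -4.05 to -3.98 (ratio 0.841), and SFRP2 in LD of Wagyu x Angus on pasture, over 8 arrays, -2.78 against -2.23 to -1.95 (ratio 0.663).

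The difference of SFRP1 between supplement and pasture in LD was not the same in the 3 breeds by the test of the interaction (adjusted p = 0.0215, limma), a call that both other SFRP1 probes missed (adjusted p = 0.0568 and 0.367).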

How the results depend on the processing

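Of 510 called member differences recomputed under other settings, 440 kept their direction and call, 63 kept the direction and lost the call, and 7 reversed. With 1 array left out in turn, 387 of 420 kept both, 33 lost the call and 0 reversed. The counts over the 5 fat depots, in LD against SC and in IMF against LD stayed within 1.5 times, and breed over fat and the interaction of IMF minus SC with breed gave 0 under every setting run. With scan day as a block, IMF minus SC had 2 calls, Kid minus SC 2, Omen minus SC 0 (1 over all 96 arrays) and supplement 0. Supplement also had 0 calls with arrays centred on their mean, with normexp, with all probes and with the deposited log2 table. With that table, which is not scaled between arrays and shifts the median of all probes by 0.83 in Kid minus SC, 0.82 in Omen minus SC and 0.98 in Inter minus SC, Kid and Omen had 7 calls each and breed in LD 1. FRZB was then 0.45 in Inter minus SC and 0.63 in Kid minus SC, both below that shift. Under the main scaling its second probe, near background in SC, gave 1.03 and 1.22. WIF1 in IMF minus SC was -0.14 with normexp (adjusted p = 0.282), FRZB in Kid minus SC 0.02 with scan day as a block over all 96 arrays, and SFRP1 in LD minus SC -0.03 within Angus. With slide as a random block, breed in LD, supplement and supplement by breed each had 0 calls, and with scan day as a block supplement by breed had 0. Choosing lead probes by difference times level gave 2 calls for supplement by breed. Within Angus, Hereford and Wagyu x Angus, counts that moved were 3 and 3 in IMF minus SC (first 2 breeds), 1 and 1 in Inter minus SC (likewise), 1, 0 and 1 in Kid minus SC and 0, 1 and 1 in Omen minus SC, with 8 arrays each. Omen minus SC had 1 call with the spread of all 60 fat arrays. SFRP1 in IMF minus LD was not called within Angus (adjusted p = 0.0921, limma) or Hereford (adjusted p = 0.376). With 1 array left out, counts ran from 4 to 5 in IMF minus SC, 5 to 5 in Inter minus SC, 3 to 4 in Kid minus SC, 2 to 3 in Omen minus SC and in breed in LD, 0 to 1 for supplement and 0 to 2 for supplement by breed. These blocks in LD (other than scan day for supplement), leaving out arrays in LD and the other scalings of the remaining pairs of tissues, where the 45 calls became 41 to 49, and scan day over all 96 arrays (44) and slide (37) as blocks in those pairs, were chosen after seeing the data. Scan day could not be fitted as a block in Inter minus SC or IMF minus Inter. The methods' t-test, on the same values and with Benjamini-Hochberg adjustment, gave the same counts as limma in the 6 comparisons it was run on. The cause of these changes was not tested.

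Replicate numbers equal the position on the slide on all 96 arrays. Arrays of the same number did not deviate together (117 pairs, median r 0.01, against -0.01 in 363 other pairs), so the number pairs nothing. With a replicate block the calls were 4 in IMF minus SC, 5 in Inter minus SC, 3 in Kid minus SC, 1 in Omen minus SC, 7 in LD minus SC and 6 in IMF minus LD.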
